A study of Mus musculus with 12 samples.

Results

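The genes described here are Abcg2, Abcb1a and Abcb1b, which encode membrane pumps that can remove the DNA dye Hoechst 33342 from living cells. They were chosen by name, and every probe set that the platform annotation pairs with only one of these symbols was read. That gave 5 probe sets of the 45101 on the array, and 3 genes of the 18193 tested. Abcg2 had 1 probe set, 1422906_at. Abcb1a had 2, 1419759_at and 1419758_at, and Abcb1b had 2, 1418872_at and 1446701_at. The first named of each pair had the higher mean over all arrays and stands for its gene below. All 5 probe sets were kept, since no filter on level was applied.

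The cells were A2C12, a line grown from a lung tumour of a C57BL/6 mouse carrying c-myc and c-raf transgenes, so every group is a sample of 1 cell line with both transgenes. Cells were sorted after Hoechst staining (5 µg/ml for 90 min) into the side population (SP), which keeps little dye, and the remaining non-SP cells, and reserpine at 50 µmol/l, an inhibitor of such pumps, served as the dye control. The 4 groups were SP anti-EpCAM, non-SP anti-EpCAM, SP untreated and non-SP untreated, with 3 biological replicates each, 12 arrays in all. Anti-EpCAM cells had received a monoclonal antibody against the epithelial adhesion protein EpCAM at 100 µg/ml for 48 h before staining, and untreated cells are labelled as having had no treatment, with no control antibody named. All values are log2 RMA signals from Affymetrix mouse arrays. A difference of 1 is therefore a 2-fold difference, and signals of different probe sets are not compared with each other.

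ABC transporters use ATP to move molecules across membranes. ABCG2, also called breast cancer resistance protein, pumps as a pair of identical subunits. It exports Hoechst and is needed for the SP phenotype of bone marrow stem cells, while P-glycoprotein is a full transporter that exports many hydrophobic drugs and can also export Hoechst. Mice have a pair of genes, Abcb1a and Abcb1b, for the P-glycoprotein that humans make from ABCB1, and reserpine blocks both kinds of pump. In normal lung these pumps are known from epithelium and from blood vessel walls.

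In the RefSeq annotation of build GRCm38.p6, Abcb1a lies on chromosome 5 at 8567091 to 8748575 and Abcb1b next to it at 8798147 to 8866314, while Abcg2 lies on chromosome 6 at 58584491 to 58692451. The RefSeq promoter table (250 bases before to 50 bases after a transcript start) matched all 3 genes, with 1 start each for Abcb1a and Abcb1b and 3 starts for Abcg2. The windows of the 2 P-glycoprotein genes are shown because their signals varied together in part over the arrays (Pearson correlation 0.62). Many other genes were as close, since Abcb1a ranked 2024 of 8907 genes by correlation with Abcb1b. The most downstream of the Abcg2 windows is shown beside them. They are on the + strand, at chr5:8566841-8567140 for Abcb1a, chr5:8797897-8798196 for Abcb1b and chr6:58640296-58640595 for Abcg2. Capitals mark matches, on either strand, to 7 short motifs: the GC box GGGCGG, the CCAAT box CCAAT, the TATA box TATAAA, the xenobiotic response core GCGTG, the antioxidant response core TGACNNNGC, the AP-1 site TGANTCA and the E box CACGTG.
Abcb1a: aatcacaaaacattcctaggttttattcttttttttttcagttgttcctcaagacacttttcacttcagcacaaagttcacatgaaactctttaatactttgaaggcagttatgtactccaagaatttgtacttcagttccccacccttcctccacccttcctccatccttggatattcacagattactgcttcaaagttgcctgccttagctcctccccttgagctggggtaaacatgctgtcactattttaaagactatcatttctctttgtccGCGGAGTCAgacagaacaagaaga
Abcb1b: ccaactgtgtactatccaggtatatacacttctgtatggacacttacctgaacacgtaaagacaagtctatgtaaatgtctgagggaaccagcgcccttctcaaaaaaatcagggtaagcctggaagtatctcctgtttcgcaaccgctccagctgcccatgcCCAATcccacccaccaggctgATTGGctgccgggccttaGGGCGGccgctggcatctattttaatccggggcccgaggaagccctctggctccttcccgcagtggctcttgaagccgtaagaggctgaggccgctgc
Abcg2: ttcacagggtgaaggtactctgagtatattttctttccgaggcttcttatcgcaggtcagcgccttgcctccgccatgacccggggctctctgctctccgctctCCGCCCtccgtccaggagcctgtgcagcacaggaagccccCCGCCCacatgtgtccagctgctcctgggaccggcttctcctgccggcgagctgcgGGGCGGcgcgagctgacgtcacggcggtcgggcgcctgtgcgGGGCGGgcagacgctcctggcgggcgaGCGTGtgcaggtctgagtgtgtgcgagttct

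The Abcg2 window held 4 GC boxes and 1 xenobiotic response core. The Abcb1b window held 1 GC box, 48 bases before the start, and 2 CCAAT boxes, 66 and 87 bases before it. The Abcb1a window held 1 match, the antioxidant response core, which lay after the start. The motifs did not overlap in these windows, so no letters were marked for more than 1 of them. Of all 32851 promoter windows of this length, 35.7% held a GC box, 37.4% a CCAAT box, 32.4% a xenobiotic response core and 12.4% an antioxidant response core. GC content was 40.3% for Abcb1a, 55.0% for Abcb1b and 67.0% for the Abcg2 window shown, against a median of 52.7% over all windows. The Abcg2 windows that are not shown differed from it. The first had 50.0% GC, 0 GC boxes and 1 TATA box. The second had 48.0% GC, 2 GC boxes, 1 CCAAT box and 1 TATA box. A TATA box was held by 13.6% of all windows. No motif was shared by the Abcb1a and Abcb1b windows. These matches describe the letters in these windows and do not show that a factor binds.

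All 3 pump genes gave signals above the array medians (5.72 to 6.06 log2 units) in both sorted fractions. Abcg2 was lowest in non-SP anti-EpCAM cells and highest in SP untreated cells, but the 4 group means spanned only 8.18 to 8.60. Its level was 8.27 ± 0.07 in SP anti-EpCAM, 8.18 ± 0.11 in non-SP anti-EpCAM, 8.60 ± 0.26 in SP untreated and 8.54 ± 0.04 in non-SP untreated cells (SD, n = 3 each). In both treatments the SP and non-SP means differed by less than the larger replicate SD of the pair, and the gap in the order lay between non-SP untreated and SP anti-EpCAM cells. Abcb1a had the same order of SP over non-SP within each treatment, at 7.33 ± 0.77 in SP anti-EpCAM, 6.97 ± 0.66 in non-SP anti-EpCAM, 7.75 ± 0.41 in SP untreated and 7.56 ± 0.24 in non-SP untreated cells (SD, n = 3 each). No neighbours in the Abcb1a order differed by more than their SDs. Abcb1b was at 9.29 ± 0.69 in SP anti-EpCAM, 8.82 ± 0.98 in non-SP anti-EpCAM, 9.30 ± 0.17 in SP untreated and 9.26 ± 0.36 in non-SP untreated cells (SD, n = 3 each). The other Abcb1b means thus lay between 9.26 and 9.30, and the lowest, that of non-SP anti-EpCAM cells, also had the widest spread.

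**Figure D1:**
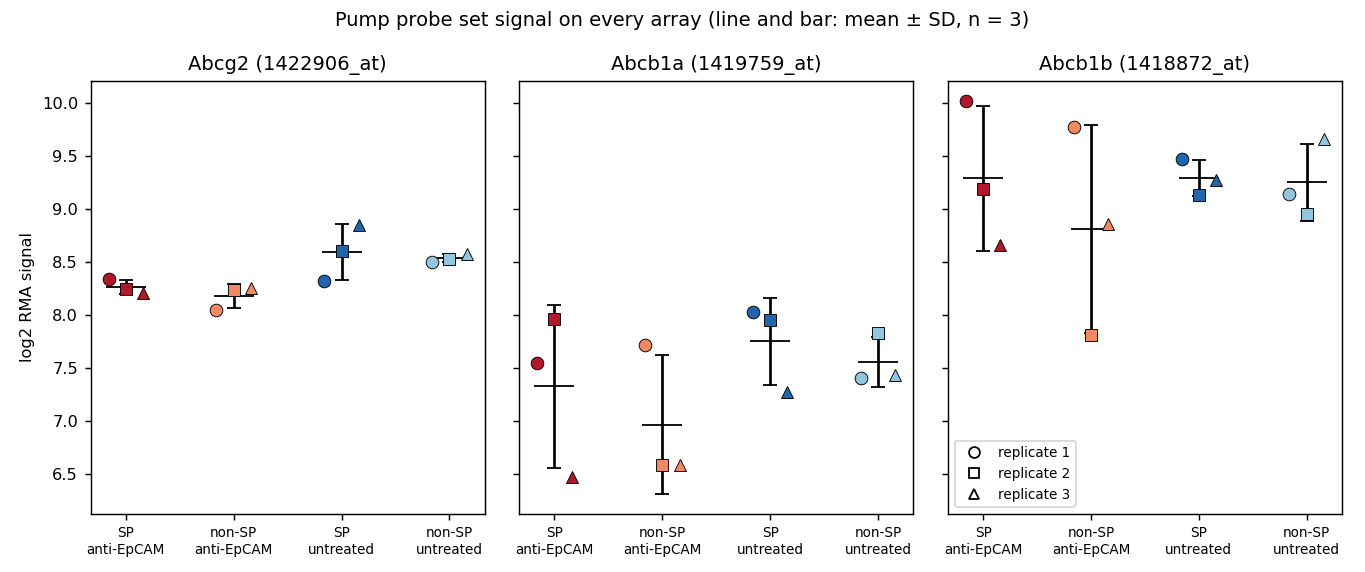
Log2 RMA signal of the lead probe set of each pump (vertical axis) on every array, by group (horizontal axis), with the replicate number as the symbol and the mean ± SD (n = 3) as line and bar. Abcg2 stays between 8.05 and 8.85 on all 12 arrays, while Abcb1a and Abcb1b spread widely among the anti-EpCAM replicates.

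The pumps differed in how much they varied between replicates of one group. The SD within groups, pooled over the 4 groups, was 0.15 for Abcg2, 0.56 for Abcb1a and 0.63 for Abcb1b, against a median of 0.27 over all genes. Of all genes, 10.4% had a smaller pooled SD than Abcg2, 96.2% a smaller one than Abcb1a and 97.9% a smaller one than Abcb1b. By this measure Abcg2 was among the less variable genes and the P-glycoprotein genes among the most variable. Between SP cells and their non-SP partners Abcg2 was nearer the middle, with 37.8% of genes having a smaller SD, against 98.8% for Abcb1a and 98.6% for Abcb1b. The P-glycoprotein values here depend heavily on 1 pair, the anti-EpCAM arrays numbered 2, with differences of 1.38 for Abcb1a and 1.37 for Abcb1b. In the other pairs the differences ran from -0.17 to 0.63 and from -0.38 to 0.33, and the rank without that pair was not computed. Over the 12 arrays Abcb1b covered a 4.63-fold range, Abcb1a a 2.95-fold range and Abcg2 a 1.74-fold range (median of all genes 1.80-fold). A smaller range was found for 99.2% of genes in the case of Abcb1b, 94.7% for Abcb1a and 44.3% for Abcg2.

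Before the comparisons, 1 pair of arrays needs to be named. An SP array and the non-SP array with the same treatment and replicate number deviated alike from their group means (correlations of 0.55 to 0.84 across genes). Each such pair is named a culture below, which the labels do not state. The anti-EpCAM culture numbered 2 stood apart. Its actin 3' minus 5' signal, which rises when RNA is degraded, was 1.03 in the SP and 0.89 in the non-SP array, against 0.18 to 0.73 on the other 10 arrays. Its SP and non-SP arrays differed by 1 log2 unit or more for 2.43% of genes, against 0.0055 to 0.544% in the other 5 cultures. The untreated culture numbered 3 came next by both measures. The 0.73 was that of its SP array, where the next highest signal was 0.40, and the 0.544% was also from this culture. The same SP array had the highest Abcg2 signal, 8.85, and the part of RNA quality in it was not tested.

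The first comparison asks whether cells that exclude the dye carried more pump transcript than the other cells, in antibody-treated and in untreated culture. In anti-EpCAM cells Abcg2 was at 8.34, 8.24 and 8.21 in SP replicates 1, 2 and 3, against 8.05, 8.24 and 8.26 in the non-SP replicates. In untreated cells it was at 8.32, 8.61 and 8.85 in SP, against 8.50, 8.53 and 8.58 in non-SP cells. The fractions overlapped under both treatments. Over all genes, SP lay wholly above non-SP for 0.572% and wholly below it for 1.78% in anti-EpCAM cells, and for 1.24% and 1.13% in untreated cells. The log2 difference was 0.08 ± 0.16 (SE) in anti-EpCAM and 0.06 ± 0.16 (SE) in untreated cells, each with a limma adjusted p of 1.00. Averaged over both treatments it was 0.07, with a 95% interval from -0.17 to 0.31, that is from 0.888-fold to 1.24-fold. Within cultures, SP was higher in 4 of 6 for Abcg2, with differences of 0.29, 0.0020 and -0.05 in the anti-EpCAM cultures and -0.18, 0.07 and 0.28 in the untreated ones. SP was higher in at least 4 of 6 cultures for 28.9% of all genes. Flipping the signs of the 6 culture differences in an exact two-sided permutation test gave p = 0.344 for Abcg2, where 0.0312 is the smallest p that 6 cultures can give. After Benjamini-Hochberg adjustment over all 18193 genes it was 0.979. That was also the lowest adjusted value of any gene in this test, so the adjusted value sets no pump apart.

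Abcb1a, one of the P-glycoprotein genes, was at 7.55, 7.97 and 6.47 in SP anti-EpCAM replicates 1, 2 and 3, against 7.72, 6.59 and 6.59 in non-SP anti-EpCAM cells. In untreated cells it was at 8.03, 7.95 and 7.28 in SP, against 7.40, 7.83 and 7.44 in non-SP cells. The groups overlapped again, and 1 array, SP anti-EpCAM replicate 2, stood 1.38 above its non-SP partner. The log2 difference was 0.36 ± 0.38 (SE) in anti-EpCAM and 0.20 ± 0.38 (SE) in untreated cells (limma adjusted p = 1.00 for both). Without both arrays of anti-EpCAM replicate 2 the first turned to -0.15. Averaged over both treatments the difference was 0.28, with an interval from -0.31 to 0.86, or 0.808-fold to 1.82-fold, and 0.02 without that culture. SP was higher in 3 of 6 cultures for Abcb1a (exact sign-flip permutation p = 0.438, and 0.979 adjusted over all genes).

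Abcb1b, the neighbouring P-glycoprotein gene, was at 10.03, 9.19 and 8.66 in SP anti-EpCAM replicates 1, 2 and 3, against 9.77, 7.81 and 8.86 in non-SP anti-EpCAM cells. In untreated cells it was at 9.48, 9.14 and 9.28 in SP, against 9.15, 8.96 and 9.66 in non-SP cells. The value that stood out was the low one of non-SP anti-EpCAM replicate 2, the lowest Abcb1b signal of all arrays. The log2 difference was 0.47 ± 0.43 (SE) in anti-EpCAM cells and 0.04 ± 0.43 (SE) in untreated cells (limma adjusted p = 1.00 for both). Without non-SP anti-EpCAM replicate 2 alone the first turned to -0.027, and without both arrays of anti-EpCAM replicate 2 it was 0.02. The mean over both treatments was 0.26, with an interval from -0.40 to 0.91, or 0.760-fold to 1.88-fold, and 0.03 without both arrays of that culture. SP was higher in 4 of 6 cultures for Abcb1b (exact sign-flip permutation p = 0.438, and 0.979 adjusted over all genes).

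With limma, 0 of 18193 genes (0% in each direction) passed an adjusted p under 0.05 in these fraction comparisons. Unadjusted p values under 0.05 belonged to 127 genes (0.698%) in anti-EpCAM cells, 4 (0.022%) in untreated cells and 19 (0.104%) for the mean of both, and no pump was among them. This fit does not use the pairing of SP arrays with their non-SP partners. It gave fewer such genes than are expected without any difference, so its p values are conservative here. With the culture as a replicate block these counts were 1311, 305 and 388 genes in the same order, still with 0 genes at an adjusted p under 0.05. In anti-EpCAM cells the block gave 0.08 ± 0.12 (SE) for Abcg2, 0.36 ± 0.28 for Abcb1a and 0.47 ± 0.26 for Abcb1b. Their limma adjusted p values were 0.814, 0.678 and 0.628. The widths of the intervals set what could be seen. For Abcg2 a difference above 1.24-fold between the fractions lay outside the interval of the mean over both treatments, while for Abcb1a and Abcb1b a difference of up to 1.82-fold and 1.88-fold lay inside it. These limits come from the fit without a block, with upper ends of 0.31, 0.86 and 0.91 log2 units in that order. With the culture as block the upper ends were lower, at 0.26, 0.74 and 0.68. In sorted bulk samples, fewer cells with a transcript and less of it per cell cannot be told apart.

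In the anti-EpCAM culture numbered 2, the lead probe sets of both P-glycoprotein genes were higher in SP cells by about the same amount. The SP minus non-SP difference there was 1.38 for Abcb1a (2.60-fold) and 1.37 for Abcb1b (2.59-fold), and 1.48 for the other Abcb1a probe set. The weak second Abcb1b probe set, 1446701_at, went the other way, at -0.31, the lowest of its 6 differences. In the same culture Abcg2 differed by 0.0020. Of all genes, 0.616% had a larger difference than Abcb1a in that culture and 0.638% a larger one than Abcb1b, with a median over all genes of -0.10, and 2.09% were higher in SP by 1 log2 unit or more. In the other 5 cultures the difference ranged from -0.17 to 0.63 for Abcb1a and from -0.38 to 0.33 for Abcb1b. This culture is the one with the highest actin 3' minus 5' signals, 1.03 in SP and 0.89 in non-SP, and the part of RNA quality in the difference was not tested.

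**Figure D2:**
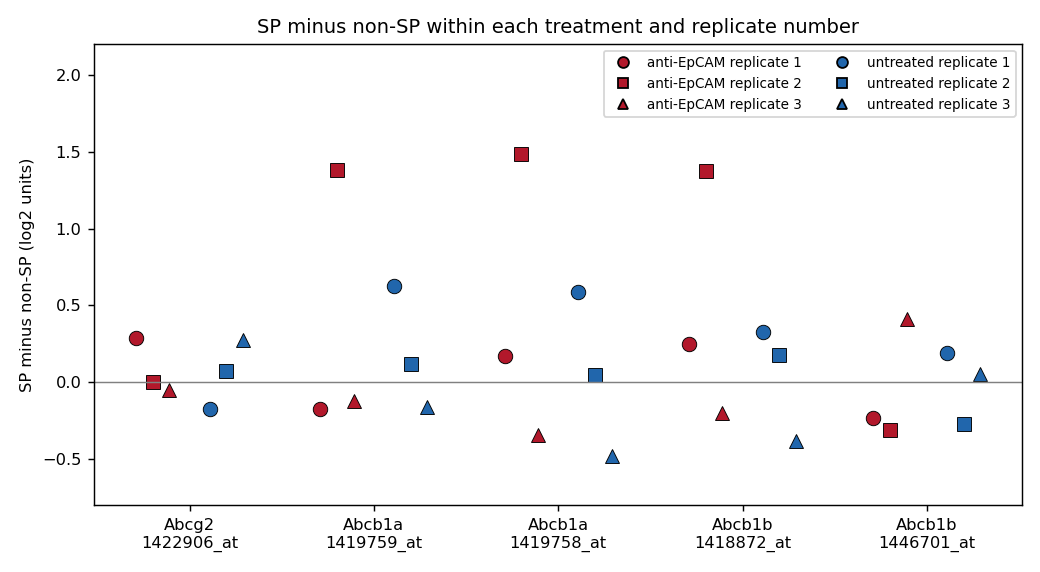
SP minus non-SP difference in log2 units (vertical axis) within each treatment and replicate number, for all 5 pump probe sets (horizontal axis), with red for anti-EpCAM and blue for untreated pairs. The anti-EpCAM pair numbered 2 lies between 1.37 and 1.48 for 3 P-glycoprotein probe sets, at -0.31 for the fourth, 1446701_at, and at 0.0020 for Abcg2, and the other pairs scatter on both sides of 0.

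The second comparison sets antibody-treated against untreated cells. Abcg2 was lower in antibody-treated cells in both fractions, without passing the threshold. As given above, its 3 non-SP anti-EpCAM values (8.05 to 8.26) all lay below the 3 non-SP untreated values (8.50 to 8.58), as for 6.62% of all genes, while 1.19% lay wholly above. In SP cells the groups met, since 1 anti-EpCAM value, 8.34, lay just above the lowest untreated value, 8.32. Over all genes, 8.04% lay wholly below and 0.434% wholly above in SP cells. The log2 difference was -0.33 ± 0.16 (SE) in SP and -0.35 ± 0.16 (SE) in non-SP cells. Both have limma adjusted p of 0.988 or more, and the unadjusted p values were 0.0584 in SP and 0.0446 in non-SP cells, where 4.59% and 3.22% of all genes had an unadjusted p under 0.05. The size depended on the scaling. Centring each array on its median gave -0.13 in SP and -0.21 in non-SP cells, neither with an unadjusted p under 0.05, and quantile normalizing again gave -0.25 in SP and -0.17 in non-SP cells.

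With the SP and non-SP array of each culture averaged, Abcg2 was at 8.20, 8.24 and 8.24 in the 3 anti-EpCAM cultures, against 8.41, 8.57 and 8.71 in the 3 untreated cultures. All treated cultures lay below all untreated ones, as they did for 6.95% of genes, against 0.616% wholly above. The difference was -0.34 ± 0.16 (SE), or 0.790-fold, with an interval from -0.70 to 0.02 and a limma adjusted p of 0.991. The median difference of all genes was -0.11 in the same direction, so relative to it Abcg2 was at -0.23. With each array centred on its median the difference was -0.17, and after a further quantile normalization -0.21.

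Abcb1a had lower means in antibody-treated cells, with wide error. Its culture means were 7.64, 7.28 and 6.53 with the antibody, against 7.72, 7.89 and 7.36 without it. The lowest was anti-EpCAM culture 3, in which both arrays were low, and the groups overlapped. The difference over both fractions was -0.51 ± 0.28 (SE), with an interval from -1.13 to 0.11 (limma adjusted p = 0.991), and -0.39 relative to the median of all genes. It was -0.42 ± 0.38 (SE) in SP and -0.59 ± 0.38 (SE) in non-SP cells. The SP value rested on single arrays, at 0.0045 without SP anti-EpCAM replicate 3 and -0.74 without both arrays of anti-EpCAM replicate 2, and it was -0.23 with arrays centred on their medians. The other Abcb1a probe set gave -0.08 in SP cells and -0.47 in non-SP cells.

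Abcb1b had culture means of 9.90, 8.50 and 8.76 with the antibody, against 9.31, 9.05 and 9.47 without it. The treated cultures thus lay on both sides of the untreated ones, with the highest and the lowest value of the 6. The difference over both fractions was -0.22 ± 0.32 (SE), with an interval from -0.95 to 0.51 (limma adjusted p = 0.991), and it turned to 0.05 without both arrays of anti-EpCAM replicate 2. By fraction it was -0.01 ± 0.43 (SE) in SP and -0.44 ± 0.43 (SE) in non-SP cells. In SP cells that value changed sign with the scaling, to 0.19 when arrays were centred and 0.09 when they were quantile normalized again. The SD over cultures was 0.74 with the antibody and 0.21 without it, which is a description of 3 values each.

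Whether the antibody acted differently on the pumps in the fractions was read from the interaction, the antibody difference in SP minus that in non-SP cells. It was 0.02 ± 0.22 (SE) for Abcg2, 0.17 ± 0.54 (SE) for Abcb1a and 0.43 ± 0.60 (SE) for Abcb1b, each with a limma adjusted p of 1.00. The intervals ran from -0.46 to 0.51, from -1.01 to 1.34 and from -0.87 to 1.74, in that order. With the culture as block they were narrower, from -0.36 to 0.40, from -0.75 to 1.08 and from -0.42 to 1.29. Without both arrays of anti-EpCAM replicate 2 the Abcb1a value turned to -0.34 and the Abcb1b value to -0.02. In the antibody comparisons and the interaction, as in the fraction comparisons, 0 of 18193 genes (0% in each direction) passed an adjusted p under 0.05. Unadjusted p values under 0.05 were found for 461 genes (2.53%) for the antibody over both fractions and for 43 genes (0.236%) for the interaction, which became 1002 genes with the replicate block.

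**Figure D3:**
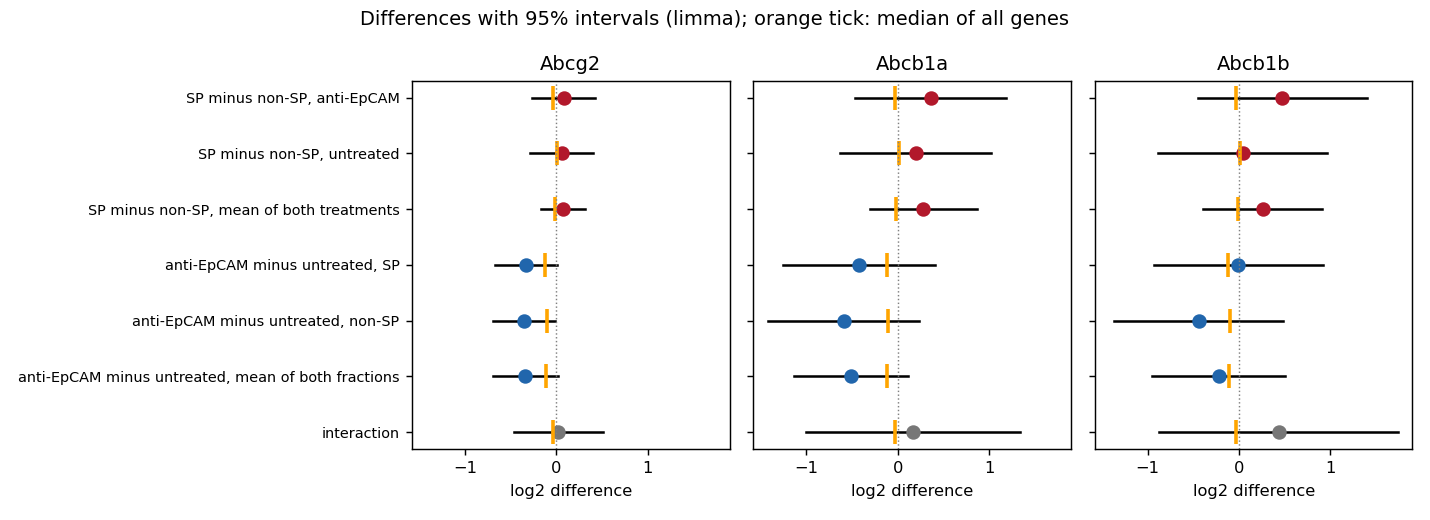
Log2 difference (horizontal axis) of each pump in the 7 comparisons (vertical axis), as points with 95% limma intervals, and the median difference of all genes as an orange tick. All Abcb1a and Abcb1b intervals cover 0. The Abcg2 antibody interval lies wholly below 0 in non-SP cells (-0.69 to -0.01, not adjusted for the number of genes). In SP cells and over both fractions it ends just above 0, at 0.01 and 0.02. The median of all genes in the antibody comparisons was -0.10 to -0.12.

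The 2 Abcb1a probe sets followed each other closely, with a Pearson correlation of 0.94 and a Spearman correlation of 0.92 over the 12 arrays. The signals of 1419758_at averaged 6.96 ± 0.97 in SP anti-EpCAM, 6.52 ± 0.58 in non-SP anti-EpCAM, 7.04 ± 0.61 in SP untreated and 6.99 ± 0.13 in non-SP untreated cells (SD, n = 3 each). As on the lead probe set, SP anti-EpCAM replicate 3 was the lowest array, at 5.85, and SP anti-EpCAM replicate 2 was high, at 7.66. The second Abcb1b probe set, 1446701_at, had a mean of 4.33 and a range of 3.86 to 4.78, below the array medians, and did not follow the first, with a Pearson correlation of -0.45. Its SP minus non-SP difference over both treatments was -0.03 ± 0.17 (SE) and its antibody difference 0.11 ± 0.21 (SE), with limma adjusted p of 1.00 and 0.992 over 45037 probe sets. Values for Abcb1b therefore rest on 1 probe set. Since Abcb1a and Abcb1b are close paralogues, signal from one on the probes of the other cannot be told apart here.

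The lead probe sets of the P-glycoprotein genes varied together in part, and Abcg2 varied apart from them. Over the 12 arrays Abcb1a and Abcb1b had a Pearson correlation of 0.62 and a Spearman correlation of 0.48. Over the 10 arrays without anti-EpCAM replicate 2 the Pearson correlation was 0.53. Abcg2 had Pearson correlations of 0.21 with Abcb1a and 0.12 with Abcb1b. For the 6 SP minus non-SP differences the correlation of Abcb1a with Abcb1b was 0.91, and the anti-EpCAM pair numbered 2 is the far point there. These values are descriptions, since the 12 arrays share 6 cultures. With the array median, Abcg2 correlated at 0.45, Abcb1a at 0.25 and Abcb1b at 0.15. With the actin 3' minus 5' signal they correlated at 0.13, -0.01 and -0.40, in the same order.

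**Figure D4:**
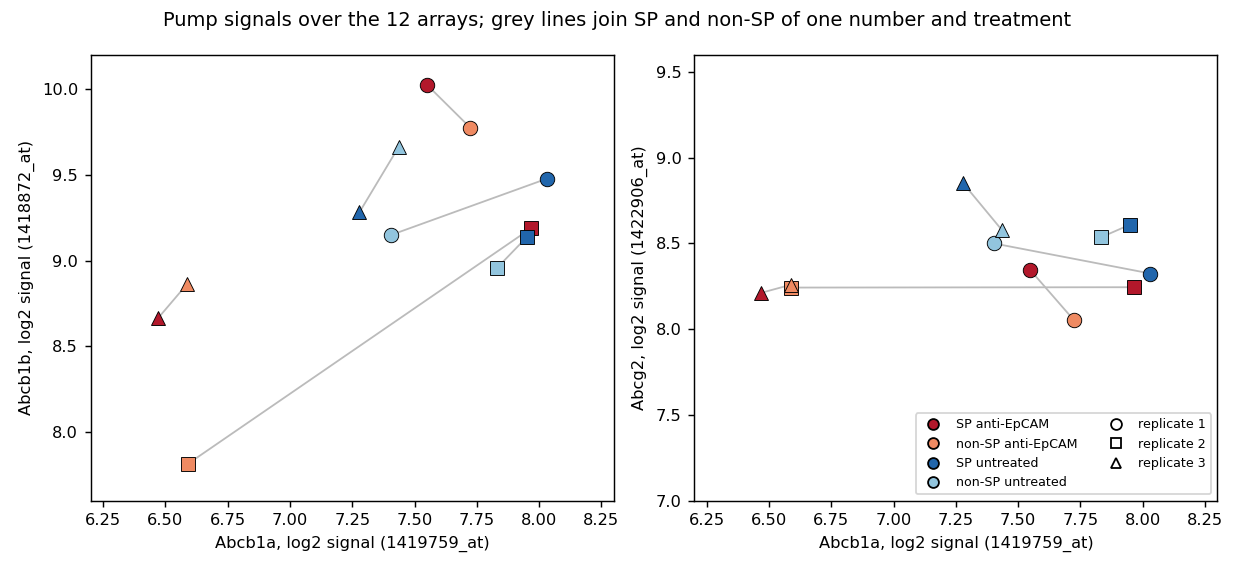
Log2 signal of Abcb1b (left panel) and Abcg2 (right panel) on the vertical axis against that of Abcb1a on the horizontal axis, 1 point per array, with grey lines joining SP to non-SP within a culture. Abcb1b varies with Abcb1a in part (Pearson correlation 0.62), while Abcg2 stays nearly level along the Abcb1a axis (0.21), and the longest line is the anti-EpCAM pair numbered 2.

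The genes whose pattern over the 12 arrays was most like each pump were ranked by Pearson correlation among 8907 named genes at or above the median level. For Abcg2 they were Pip4p2, a phosphoinositide phosphatase gene, at 0.95, Map3k4, a stress kinase gene, at 0.94, Tmem19 at 0.94, Meak7 at 0.94 and Ift74, a gene of ciliary transport, at 0.93. For Abcb1a they were Foxo3, a forkhead transcription factor gene that is also in the list of regulators below, at 0.92, Wipi2, which acts in autophagy, at 0.92, the pseudogene Gpr137b-ps at 0.91, Foxa2, a forkhead factor of lung and gut epithelium, at 0.91 and Rmc1 at 0.91. For Abcb1b they were Tank, an adaptor of NF-kB signalling, at 0.98, Naa16, a protein acetylation gene, at 0.96, Elf1, an ETS transcription factor gene, at 0.96, Vstm5 at 0.96 and Fuca2, a lysosomal fucosidase gene, at 0.96. None of the pumps was among the 5 genes most like another. Abcb1b ranked 756 for Abcb1a, and Abcb1a ranked 2024 for Abcb1b. The probe sets of Pip4p2, Map3k4, Gpr137b-ps and Rmc1 carry s_at or x_at names and can take up related transcripts.

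Regulators of pump transcription were read as a list of 30 genes, of which 27 were measured, among them the dye and drug sensors Ahr and Nr1i2, the stress factors Nfe2l2 and Hif1a, and general factors of these promoters. With limma, 0 rose and 0 fell in either the fraction or the antibody comparison. The median difference was -0.03 for SP minus non-SP and -0.12 for anti-EpCAM minus untreated, each over the mean of the other factor, against -0.01 and -0.11 for all genes. The lowest unadjusted p values belonged to Arnt, the partner of the dioxin receptor, at -0.41 ± 0.22 (SE) with the antibody, and to Nr1i3, a nuclear receptor of drug metabolism, at -0.41 ± 0.22 (SE). Nr1i2, the pregnane X receptor, was at -0.33 and Jun, an AP-1 subunit, at -0.29. The array signals of Nr1i2 and Nr1i3 were low, with means of 4.64 and 4.80.

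Of the 11 genes that the dioxin receptor and Nfe2l2 are known to induce, all 11 were measured and 0 passed in either direction. Their median was 0.04 between the fractions and 0.06 for the antibody, where 10 of 11 lay above the median of all genes (-0.11). Among them Cyp1a1, a detoxifying oxidase gene, was at 0.37 ± 0.39 (SE) with the antibody and Txnrd1, thioredoxin reductase, at 0.23 ± 0.27 (SE). Cyp1b1 was at -0.16 and Aldh3a1 at 0.13. The array signal of Cyp1a1 was low, with a mean of 5.17. Of 14 genes for kinases, membrane anchors and trafficking factors of the pumps, 13 were measured and 0 passed. Their medians were 0.02 between the fractions and -0.09 for the antibody. Cav1, the main protein of caveolae, was at -0.29 ± 0.17 (SE) with the antibody, and Pdzk1, a scaffold of membrane transporters, at -0.33 ± 0.21 (SE). Rab4a, a recycling GTPase gene, was at 0.10 ± 0.11 (SE) between the fractions, and Fbxo15 at 0.20 with the antibody. Signals of Pdzk1 and Fbxo15 were low, with means of 5.08 and 3.73.

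The 7 nearest relatives of the pumps were all measured, and 0 passed. Between the fractions their median was -0.09 (range -0.22 to -0.02), with 7 of 7 below the median of all genes (-0.01). Abcg8, a sterol transporter gene, was at -0.22 ± 0.14 (SE), Abcg1, a cholesterol exporter gene, at -0.10 and Abcg3, a mouse relative of Abcg2, at -0.06. With the antibody their median was 0.12, and Abcb11, the bile salt pump gene, was at 0.40 ± 0.21 (SE). The array signals of Abcb11 and Abcg5 were low, with means of 4.35 and 4.14, and those of Abcg1 and Abcg3, 5.82 and 5.84, were near the array medians. Of the genes within 3 places of a pump on its chromosome, 10 of 12 were measured and 0 passed. Their medians were -0.05 between the fractions and -0.08 for the antibody. Herc3, which follows Abcg2, was at 0.21 ± 0.28 (SE) between the fractions and -0.50 ± 0.33 (SE) with the antibody. Abcb4, the phospholipid transporter gene that follows Abcb1b, was at -0.09 between the fractions, Rundc3b at 0.14 and Crot, a fatty acid enzyme gene, at 0.10. Rundc3b also had a low signal, with a mean of 5.22.

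Since these pumps are also known from blood vessels and blood cells, markers of other cells were read. Of 7 endothelial markers, 6 had means below 6, among them Pecam1 at 4.55 and Cdh5 at 4.74, and Kdr had 6.70. Their summed signal in log2 units ran from 7.74 to 8.11 in SP anti-EpCAM, 8.04 to 8.38 in non-SP anti-EpCAM, 7.86 to 8.25 in SP untreated and 7.85 to 8.13 in non-SP untreated arrays. Of 7 leukocyte and macrophage markers, 3 had means below 6, among them the pan-leukocyte gene Ptprc at 3.42, while Csf1r had 9.98, and the summed signals covered 9.88 to 10.47, 9.80 to 10.78, 10.23 to 10.69 and 10.49 to 10.69 in the same order of groups. Of 6 epithelial markers, 5 were at 6 or above, with Krt19 at 11.7, Krt8 at 8.77, Epcam at 8.11, Krt18 at 6.55 and Cdh1 at 6.35. Cldn4 was at 5.43, and the summed epithelial signal ran from 11.7 to 12.7 over all arrays. Of 6 measured type II cell markers, 2 were at 6 or above, and the surfactant gene Sftpc had only 5.64. Of 7 fibroblast markers, 6 were at 6 or above, with Col1a2 at 12.6, Col3a1 at 12.3 and Col1a1 at 11.5, and their summed signal ran from 13.5 to 14.6 over all arrays. No part of the cells that these markers stand for in the pump values was tested.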

How the data were processed

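Transcript signals were measured on 12 Affymetrix mouse arrays, 4 groups of 3 replicates, grouped by the sample titles. The authors deposited log2 values made with RMA, a method named in the submitters' processing notes. The software, its version and any later scaling: not given in the sources used here. Of 45101 probe sets, 64 controls were left out. Among probe sets with 1 gene symbol (platform annotation of 2016) the one with the highest mean stood for its gene, giving 18193 genes.

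Differences were tested with limma 3.58.1 in R 4.3.3 (lmFit and eBayes without trend, group means, no block, two-sided, Benjamini-Hochberg over all genes, threshold 0.05). For the antibody over both fractions, each SP array was first averaged with its non-SP partner. Every probe set was also tested among 45037. The fit was run on simulated arrays with known changes. Their noise was independent between arrays, unlike that of SP arrays and their non-SP partners here. Deviations from group means correlated across genes at 0.55 to 0.84 between SP arrays and their non-SP partners, which were taken as paired, and at -0.38 to -0.0054 between anti-EpCAM and untreated arrays with the same number. Since nothing in the labels says more than biological replicate, p-values measure the spread between these samples. Named are the pumps, up to 4 genes of each list with the lowest p, neighbours and the 5 most alike genes. Members and lists were chosen with earlier results of these data known. The number of arrays limits the precision. Alternatives were other scalings, a level filter, other probe set rules, an intensity trend, replicate blocks and left-out arrays. Figures used Python 3.11.15 and matplotlib 3.10.9.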

Additional observations from a re-analysis of the deposited data

How the results depend on the processing

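No pump and no gene passed an adjusted p under 0.05 in any of the 7 comparisons under any of the alternatives run, and the lowest adjusted p of a pump was 0.467, for Abcg2 under the antibody with 12 arrays that were not averaged. With limma the number of genes at an unadjusted p under 0.05 ran from 0 to 1484 over comparisons and settings, and with the replicate block it was 1311 (SP minus non-SP, anti-EpCAM), 305 (untreated), 388 (both treatments), 1158 (antibody, SP), 930 (non-SP), 349 (both fractions) and 1002 (interaction). The block was the culture in the SP minus non-SP comparisons and the interaction. In the antibody comparisons it was the replicate number, which joins anti-EpCAM with untreated arrays. Deviations of those arrays correlated at -0.38 to -0.0054, so the data do not bear out that pairing. Among 45037 probe sets the number at an unadjusted p under 0.05 ran up to 3533, with the culture as block. With the replicate block the SP minus non-SP difference over both treatments kept its value, with intervals from -0.12 to 0.26 for Abcg2, -0.18 to 0.74 for Abcb1a and -0.17 to 0.68 for Abcb1b, and the block changed no call. Of 447 alternative values of the pumps, 30 had the opposite sign. Leaving out 1 array at a time, or both of anti-EpCAM replicate 2, gave -0.0696 to 0.194 for Abcg2 and -0.107 to 0.245 for Abcb1b (SP minus non-SP, untreated), -0.146 to 0.791 for Abcb1a and -0.0273 to 0.953 for Abcb1b (SP minus non-SP, anti-EpCAM), -0.917 to 0.0632 for Abcb1b (antibody, non-SP), -0.744 to 0.0045 for Abcb1a and -0.37 to 0.31 for Abcb1b (antibody, SP), -0.451 to 0.0547 for Abcb1b (antibody, both fractions), and for the interaction -0.112 to 0.152 for Abcg2, -0.342 to 0.595 for Abcb1a and -0.0693 to 0.911 for Abcb1b. Without both arrays of anti-EpCAM replicate 2, Abcb1a turned to -0.15 (SP minus non-SP, anti-EpCAM) and -0.34 (interaction), and Abcb1b to 0.0632, 0.0462 and 0.0547 (antibody in non-SP, in SP and in both) and -0.0170 (interaction). After a further quantile normalization Abcg2 turned to -0.0020 (SP minus non-SP, anti-EpCAM) and -0.0794 (interaction) and Abcb1b to 0.0852 (antibody, SP), where centred arrays gave 0.189 and the mean of its probe sets 0.0447. The other Abcb1a probe set turned to 0.114 with centred arrays and 0.0186 after quantile normalization (antibody, SP), and the weak Abcb1b probe set to 0.0054 and 0.0438 (SP minus non-SP, anti-EpCAM), 0.0180 and 0.0856 (interaction) and, after quantile normalization, 0.0010 (SP minus non-SP, both treatments). Except where arrays were left out, the cause of these changes was not tested. Leaving out each culture in turn, chosen after seeing the data, gave culture differences of 0.03 to 0.12 for Abcg2, 0.06 to 0.37 for Abcb1a and 0.04 to 0.39 for Abcb1b.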
